A study of Homo sapiens with 6 samples.

Results

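The Mediator complex and its kinases were followed in PC3, a human prostate cancer cell line, after transfection with miR-130a. The members are the genes whose array row carries exactly 1 platform gene symbol of the form MED followed by a number, with or without the suffix L, together with CDK8, CDK19 and CCNC. By this rule 31 of the 22465 genes measured were members, 7 of the kinase module and 24 of the core complex, and each of the 31 had a single row. MED6 and MED25 were not analysed here. Total RNA was hybridised to Affymetrix Human Transcriptome arrays, 3 after transient transfection of PC3 cells with a synthetic Pre-miR precursor of miR-130a and 3 after transfection with a negative control precursor. The series describes 3 independent experiments. Both groups therefore share the cell line and the transfection itself, and a single line limits how far the values can stand for prostate cancer cells. The labels do not state how long after transfection RNA was taken.

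Mediator is the large complex that carries signals from DNA-bound transcription factors to RNA polymerase II at promoters. Its head and middle contact the polymerase, its tail receives most activators, and MED14 runs through the complex as a scaffold. A separable kinase module, in which CDK8 or its paralog CDK19 pairs with cyclin C (CCNC) and is activated by MED12, docks through MED13 and can block polymerase binding or phosphorylate transcription factors. CDK8 and CDK19 are alternative subunits, as are MED12 and MED12L and as are MED13 and MED13L, so a module holds 1 member of each pair.

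MicroRNAs find messenger RNAs mainly through the seed, bases 2 to 8 of the mature strand. The mature strand of the transfected microRNA is hsa-miR-130a-3p. Its own sequence was missing from the reference used and is not printed here. Mature strands of 4 other microRNAs of its family are shown instead. The seed that defines the family is in capitals (RefSeq, GRCh38.p14, 5′ to 3′).
hsa-miR-130b-3p, chr22:21653354-21653375, plus strand: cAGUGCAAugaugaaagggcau
hsa-miR-301a-3p, chr17:59151149-59151171, minus strand: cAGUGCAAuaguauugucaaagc
hsa-miR-301b-3p, chr22:21653025-21653047, plus strand: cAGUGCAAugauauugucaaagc
hsa-miR-454-3p, chr17:59137787-59137809, minus strand: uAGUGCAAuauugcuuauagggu
All 4 have the same seed, AGUGCAA, and differ at some of the remaining bases. Matches to this seed in the transcripts of the Mediator genes were not analysed here.

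All values are log2 expression values as the authors normalised them, so a difference of 1 is a doubling of the array signal. The number of arrays limits the precision. Negative control 3 stood apart. Over all rows it correlated with the other controls at r = 0.992 to 0.9923, against 0.9958 between negative controls 1 and 2, 0.9931 to 0.9935 between negative control 3 and the miR-130a arrays, and 0.9964 to 0.9967 among the miR-130a arrays. Where leaving out this array changed the call of a named gene, both values are given. The epithelial markers KRT8, KRT18, KRT19, EPCAM and CDH1 had mean levels between 6.49 and 10.4. The 3 measured luminal prostate markers KLK3, KLK2 and TMPRSS2 lay between 5.00 and 5.89, near the median of all rows (4.995). Of 8 fibroblast, endothelial and leukocyte markers 7 were measured, from 2.72 for the pan-leukocyte gene PTPRC to 9.95 for CD68, a lysosomal gene that many tumour lines express. Of these markers KRT18 rose 1.31-fold (limma adjusted p = 0.018) and CD68 was 1.37-fold lower (adjusted p = 0.00325), and their part in the results was not tested. All 31 Mediator genes had mean levels above the median of all rows, from 5.47 (MED12L) to 9.71 (MED14).

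With miR-130a, CDK19 fell and MED13L rose, and the other 29 Mediator genes did not pass the test (limma, adjusted p below 0.05 over all 22465 genes). Of all genes tested, 4.23% were called, 2.48% higher and 1.74% lower. Of the Mediator genes 2 of 31 were called, both in the kinase module. The median change was -0.01 over the 31 members and -0.01 over all genes. The median was 0.16 for the 7 kinase module genes and -0.02 for the 24 core genes. The miR-130a and control values of 15 of the 31 members (48.4%) did not overlap, 8 higher and 7 lower. Of all genes, dim ones included, 23.6% showed this pattern. Among 94 measured genes from 6 lists of RNA polymerase II transcription, described below, the share was 47.9%. It is therefore not particular to Mediator. In the kinase module the groups did not overlap for 6 of 7 genes, with CDK19 lower and 5 genes higher. In the core they did not overlap for 9 of 24, with 3 higher and 6 lower.

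CDK19, the paralog of CDK8 that can take its place as the Mediator kinase, showed the largest change of the complex. Taken in array order, its levels were 7.46, 7.42 and 7.24 in the controls, then 6.70, 6.61 and 6.51 after miR-130a. The lowest control lay 0.54 above the highest miR-130a array, more than the range within either group. The mean went from 7.37 ± 0.12 to 6.61 ± 0.10 (SD, n = 3 per group), 1.70-fold lower (log2 difference -0.77, SE 0.078, 95% interval -0.95 to -0.58, limma adjusted p = 0.00307). Of the 392 genes called lower, 9 fell further than CDK19. In total RNA of a culture, fewer cells with the transcript and less of it per cell cannot be told apart.

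MED13L, one of the paired subunits that tether the kinase to the core, was the only member called higher. Its level was 8.45, 8.47 and 8.26 in the controls and 8.74, 8.67 and 8.73 with miR-130a. All miR-130a arrays lay above all controls, and negative control 3 was the lowest. The mean went from 8.39 ± 0.12 to 8.72 ± 0.04 (SD, n = 3 per group), 1.25-fold higher (log2 difference 0.32, SE 0.068, limma adjusted p = 0.044). This call was close to the threshold. It was lost on removal of either of the first 2 controls (adjusted p = 0.105 and 0.0574) or of any miR-130a array (adjusted p = 0.129 to 0.19), and also with median centring of the arrays (adjusted p = 0.114) or with all rows tested (adjusted p = 0.172). Without negative control 3 the difference was 0.25 and the adjusted p 0.0179. CDK19 passed with any 1 array left out (adjusted p = 0.00352 to 0.0219).

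**Figure D1:**
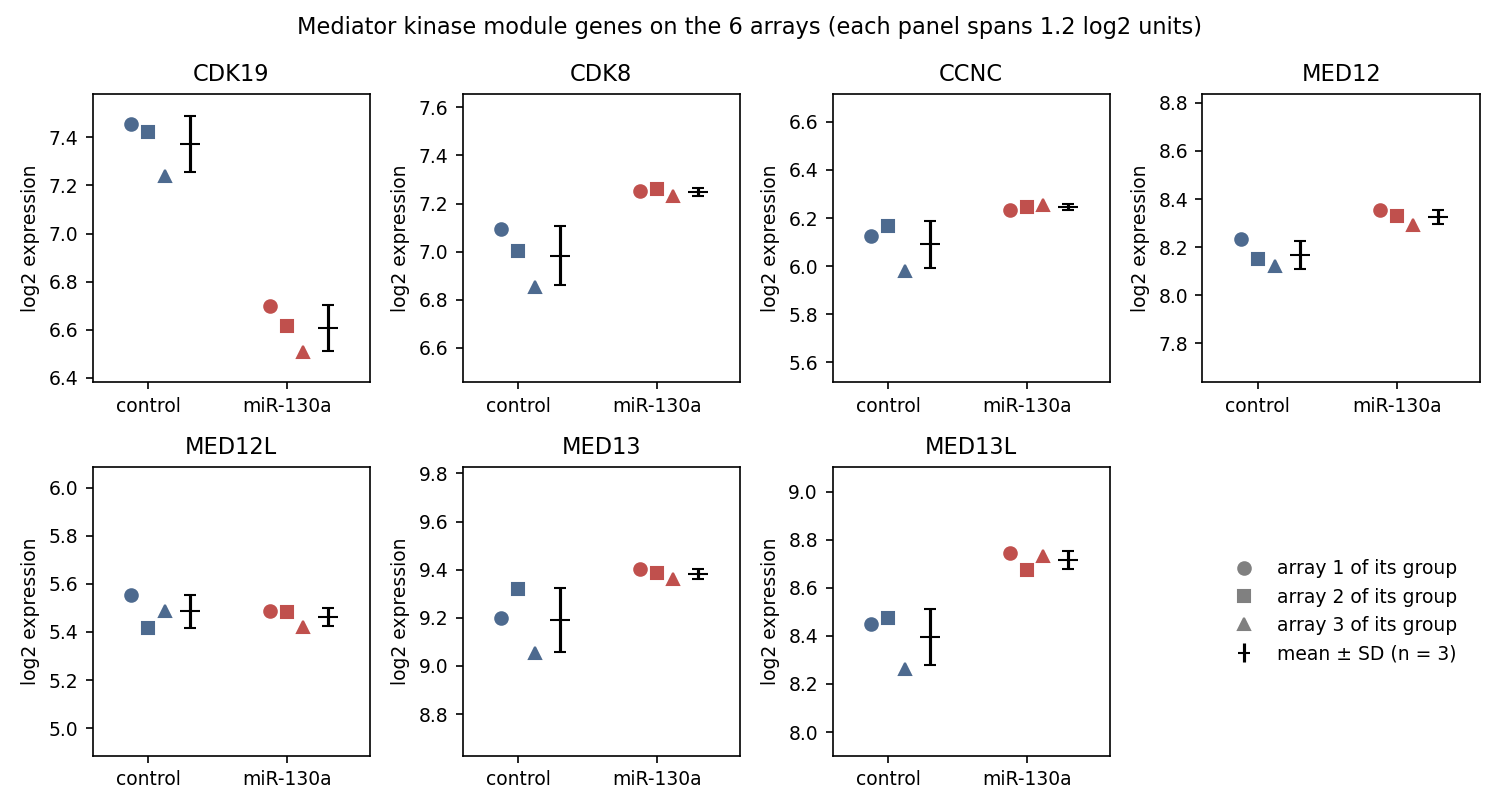
Log2 expression of the 7 kinase module genes on each of the 3 negative control arrays (blue) and 3 miR-130a arrays (red), with the mean and SD of each group in black and a span of 1.2 log2 units in every panel. CDK19 lies lower on all 3 miR-130a arrays, CDK8, CCNC, MED12, MED13 and MED13L lie higher on all 3, and the groups overlap for MED12L.

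The kinase CDK8 had levels of 7.09, 7.003 and 6.85 in the controls and 7.25, 7.26 and 7.23 with miR-130a. The miR-130a arrays lay close together and above every control, and the controls were more widely spread. The log2 difference was 0.27 (SE 0.068, 95% interval 0.11 to 0.43) and missed the threshold (limma adjusted p = 0.0817). Without negative control 3 it was 0.20 and passed (adjusted p = 0.0412).

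Cyclin C, which CDK8 and CDK19 need for activity, had levels of 6.12, 6.17 and 5.98 in the controls and 6.23, 6.25 and 6.26 with miR-130a (log2 difference 0.15, limma adjusted p = 0.254). MED12, the subunit that activates the cyclin C kinase, had levels of 8.23, 8.15 and 8.12 against 8.35, 8.33 and 8.29 (log2 difference 0.16, adjusted p = 0.173). MED13, the tether that pairs with MED13L, had levels of 9.20, 9.32 and 9.05 against 9.40, 9.39 and 9.36 (log2 difference 0.19, adjusted p = 0.229). In all 3 genes every miR-130a array exceeded every control, but by 0.04 to 0.06 only, and none passed the test. MED12L, the paralog of MED12, had the lowest level of the complex, 5.55, 5.42 and 5.49 in the controls and 5.49, 5.48 and 5.42 with miR-130a. Its groups overlapped (log2 difference -0.02, 95% interval -0.15 to 0.11).

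Negative control 3 was the lowest control in 6 of the 7 kinase module genes and in 21 of the 31 members, against 31.6% of all genes. The same held for 56 of the 94 measured genes of the 6 transcription lists, so this is not particular to Mediator. Within the kinase module the median SD was 0.12 in the controls and 0.03 on the miR-130a arrays, and over all genes it was 0.10 and 0.04. The median deviation of the 6 kinase module genes other than CDK19 from their mean over 6 arrays was -0.03, -0.07 and -0.21 on negative controls 1, 2 and 3, and 0.11, 0.09 and 0.08 on the miR-130a arrays. The shift on negative controls 1 and 2 was thus smaller than on negative control 3, and all 3 were below the miR-130a arrays. Over all genes the median deviation on negative control 3 was 0.05. In the fit without negative control 3 the median change of the 6 kinase module genes other than CDK19 was 0.13, against 0.17 with it. The part of this array in the size of the differences was not tested.

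CDK19 lay below and CDK8 above all controls on every miR-130a array. Relative to the control mean, the log2 difference of CDK19 minus CDK8 was -0.03, 0.03 and 0.00 on the controls and -0.94, -1.04 and -1.11 with miR-130a. The spread of this difference between controls was smaller than that of either gene, as both were low on negative control 3. The change of CDK19 was 1.03 log2 units below that of CDK8 (difference of changes -1.03), with an exact two-sided permutation p of 0.1, the smallest that 3 arrays against 3 allow. This design cannot reach the 0.05 threshold, and after Benjamini-Hochberg adjustment over the 3 paralog pairs compared the value was again 0.1.

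The other pairs differed less. MED13L minus MED13 was 0.14, 0.08 and 0.17 above the control mean on the miR-130a arrays, against 0.05, -0.05 and 0.00 on the controls, a difference of changes of 0.13 (exact permutation p = 0.1). MED12L minus MED12 was at -0.18, -0.16 and -0.19 on the miR-130a arrays, against 0.00, -0.05 and 0.04 on the controls, a difference of changes of -0.18 (exact permutation p = 0.1). MED12L itself, the gene with the lowest level of the complex, changed by -0.02 with overlapping groups. MED12 changed by 0.16, and neither gene passed the limma test. In each of the 3 pairs the difference between both genes did not overlap between the groups. Leaving out any 1 array kept the sign in each pair, with differences of -1.08 to -0.99, 0.10 to 0.15 and -0.20 to -0.16, and an exact permutation p of 0.2, the smallest possible with 5 arrays.

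**Figure D2:**
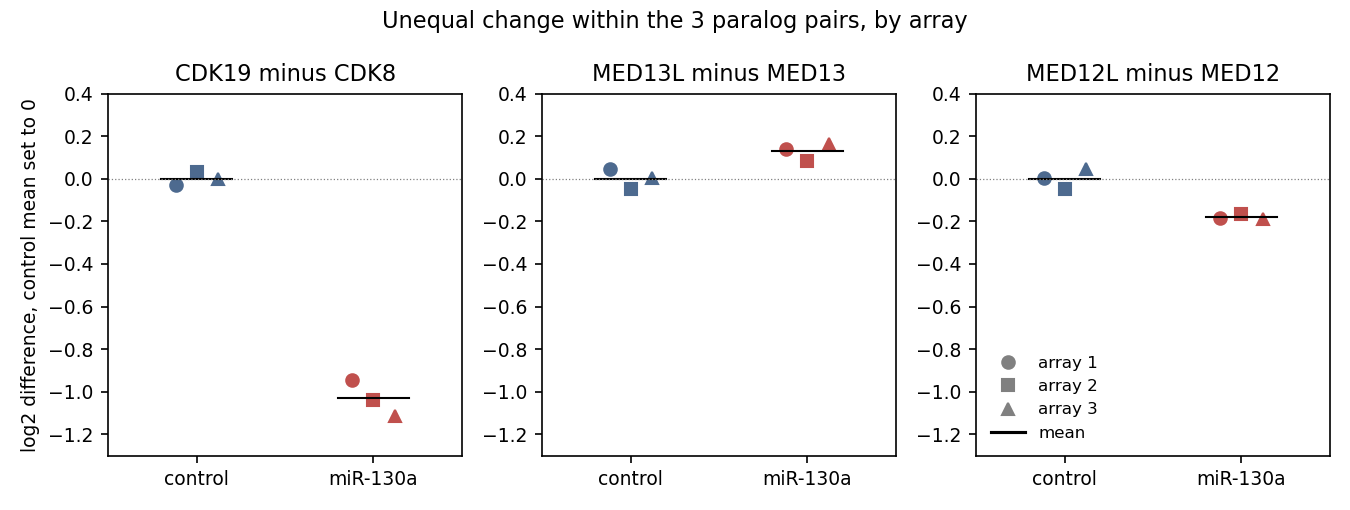
Log2 difference within the 3 paralog pairs of the kinase module on each array, with the mean of the controls set to 0. Points are single arrays and black lines group means. The CDK19 minus CDK8 difference lies between -0.94 and -1.11 on the miR-130a arrays, whereas the other pairs move by less than 0.2.

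None of the 24 core genes passed the test. By limma 0 core genes were called, and 5 had an unadjusted p below 0.05, as did 16.5% of all genes. Changes ranged from -0.24 to 0.21, and 17 of the 24 were smaller than 0.1. No 95% interval of a core gene reached further than 0.37 from 0, which corresponds to 1.29-fold, so changes beyond that size lay outside the interval of every core gene. A p that misses the threshold does not show that a gene stayed the same.

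Of the 10 head genes, MED8 had the largest difference, with levels of 7.80, 7.71 and 7.66 in the controls and 7.92, 8.01 and 7.89 with miR-130a (log2 difference 0.21, SE 0.059, limma adjusted p = 0.102). MED11, which pairs with MED22 in the head, had levels of 7.37, 7.21 and 7.19 against 6.96, 7.07 and 7.15 (log2 difference -0.20, adjusted p = 0.226). Neither gene's groups overlapped, and the gap between them was 0.09 for MED8 and 0.04 for MED11. MED22 itself differed by 0.10 and MED17, the central head subunit, by 0.12. MED18 and MED20, which form the movable jaw of the head, differed by -0.09 and -0.02. The subunits MED27, MED28, MED29 and MED30, which structural studies place in the head or in the upper tail, differed by -0.08, 0.06, -0.03 and -0.01.

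Of the 9 middle genes, 7 had a lower mean with miR-130a and none passed. MED21, which with MED7 forms the hinge of the middle, had levels of 8.99, 8.97 and 8.93 in the controls and 8.82, 8.80 and 8.80 with miR-130a. Its spread was small in both groups, and the lowest control lay 0.11 above the highest miR-130a array (log2 difference -0.16, SE 0.047, limma adjusted p = 0.13). MED31, a conserved subunit of the middle, had levels of 7.42, 7.34 and 7.27 against 7.18, 7.23 and 7.04 (log2 difference -0.19, adjusted p = 0.196). MED7 differed by -0.08 without overlap. MED4 had levels of 7.83, 7.88 and 7.55 in the controls and 7.69, 7.66 and 7.65 with miR-130a, so that negative control 3 lay below and negative controls 1 and 2 above all miR-130a arrays.

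MED1, the subunit that binds liganded nuclear receptors, had levels of 8.99, 8.99 and 8.79 in the controls and 8.99, 9.02 and 9.07 with miR-130a, and the groups overlapped. MED26, which brings elongation factors to Mediator, differed by -0.02, MED9 by -0.06, MED10 by -0.01 and MED19 by 0.01. The scaffold MED14 had levels of 9.77, 9.72 and 9.58 against 9.71, 9.71 and 9.74, a difference of 0.03 (95% interval -0.11 to 0.17).

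Of the 4 tail genes, MED15, a coactivator for the sterol regulator SREBP and for SMAD factors, came closest to the threshold of the whole core. Its level was 7.85, 7.80 and 7.94 in the controls and 7.61, 7.65 and 7.61 with miR-130a. All miR-130a arrays lay below all controls, and negative control 3 was the highest, unlike in most members. The log2 difference was -0.24 (SE 0.055, 95% interval -0.37 to -0.11, limma adjusted p = 0.0573). Without negative control 3 it was -0.20 and passed (adjusted p = 0.0306). MED16 differed by 0.07, MED24 by 0.01 and MED23, a tail subunit through which the ERK-responsive factor ELK1 acts, by 0.00 (95% interval -0.17 to 0.17).

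**Figure D3:**
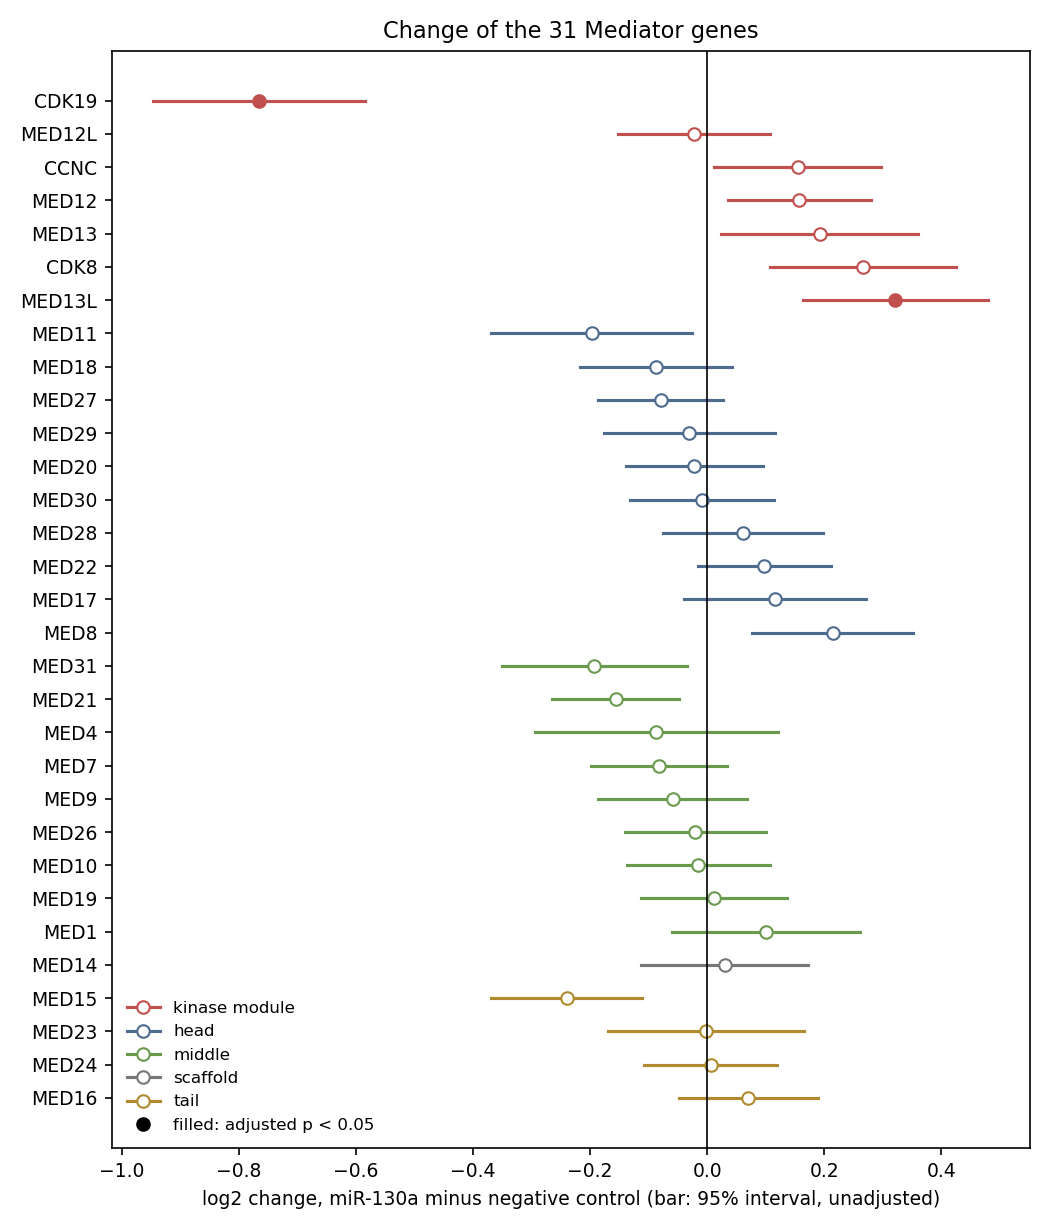
Log2 change (miR-130a minus negative control, 3 arrays each) of the 31 Mediator genes with unadjusted 95% intervals, grouped by module. Only CDK19 (-0.77) and MED13L (0.32) have filled points, which mark an adjusted p below 0.05, and the core genes lie between -0.24 and 0.21.

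Without negative control 3, 6 of 31 members were called against 10.0% of all genes. Of these 2 were higher and 4 lower, against 4.88% and 5.14% of all genes. These were CDK19, MED13L and CDK8 of the kinase module, MED21 (difference -0.17, limma adjusted p = 0.0354) and MED4 (difference -0.19, adjusted p = 0.0335) of the middle, and MED15 of the tail. MED4 changed most with this array, from -0.09 with all arrays. CDK19 differed by -0.83 in this fit (1.78-fold lower, adjusted p = 0.00352). Of the 31 members 29 kept the direction of their change, and the exceptions, MED14 and MED19, stayed within 0.03 of 0 in both fits.

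**Figure D4:**
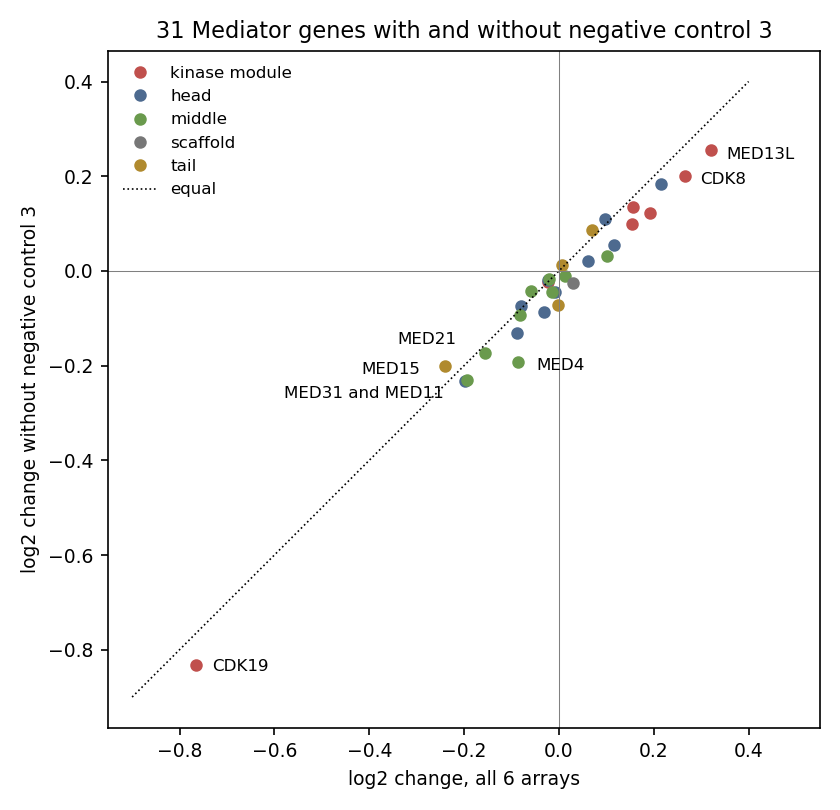
Log2 change of the 31 Mediator genes in the fit with all 6 arrays (horizontal axis) and without negative control 3 (vertical axis), coloured by module, with the dotted line marking equal values. CDK19 lies far from the other members in both fits (-0.77 and -0.83), and MED4 lies furthest below the line (-0.09 and -0.19).

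The promoters of the 3 kinase module genes with the largest differences are shown in part. The differences of CDK8 and MED13L have the opposite sign to that of CDK19, and a part of the promoters in this was not tested. Promoter sequences from RefSeq (GRCh38.p14) were matched for 24 of the 31 members, with 29 windows in all, and the 250 bases upstream of each start were searched on both strands. All 3 genes hold the GC box GGGCGG, which SP and KLF factors bind. The 30 bases around the match nearest to the most upstream start are printed 5′ to 3′ on the gene's strand, with the GC box in capitals (CCGCCC on the opposite strand).
CDK19, chr6:110815898-110815927, minus strand: cagcgggacgggGGGCGGggcaataggcgg
CDK8, chr13:26253998-26254027, plus strand: cagcgccagcagGGGCGGccagccaccgcg
MED13L, chr12:116277763-116277792, minus strand: cccctcccccgcCCGCCCctcgctcccccc
The GC box occurred in 16 of the 29 member windows (55.2%) and in 42.6% of all 35116 windows. The ETS site CCGGAAG occurred in 20.7% of the member windows and 8.52% of all, and the CRE core TGACGT in 20.7% and 7.1%. For the CCAAT box CCAAT the shares were 37.9% and 32%, for the E-box CACGTG 6.9% and 6.34%, and for the TATA box TATAAA 6.9% and 10.7%. These are matches of letters, windows of 1 gene can share sequence, and no motif contains another, although the E-box and the CRE core share the letters ACGT.

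Among other genes of RNA polymerase II transcription, taken from 6 lists, 94 of 104 were measured and the median change was 0.01. Of the 94, 7 were called higher and 2 lower, where 2.48% and 1.74% of all genes were. Without negative control 3, 10 were called higher and 8 lower, where 4.88% and 5.14% of all genes were. When any other single array was left out, the number of calls in these lists was 0 or 1, except without negative control 2, where it was 7.

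None of the 12 RNA polymerase II subunits passed in limma with all arrays, and 4 had an unadjusted p below 0.05, as did 16.5% of all genes. Without negative control 3, with the filter on dim rows, with a second quantile normalisation or with limma's trend and robust options, 2 subunits passed. With array weights 8 passed. The median change of the 12 subunits was -0.08. The small subunit POLR2K was at -0.23 (limma adjusted p = 0.061) and the second-largest subunit POLR2B at -0.22 (adjusted p = 0.081). Both passed without negative control 3, POLR2K at -0.28 (limma adjusted p = 0.0115) and POLR2B at -0.26 (adjusted p = 0.0157). Of 29 general initiation factors only TAF4B, a TFIID subunit, passed, rising 1.41-fold (log2 difference 0.49, SE 0.088, adjusted p = 0.0243), while the TFIIF subunit GTF2F1 differed by -0.22 (adjusted p = 0.064) and TAF10 by -0.20 (adjusted p = 0.102). Without negative control 3, 3 of the 29 initiation factors passed, 1 higher and 2 lower, with GTF2F1 among them at -0.24 (adjusted p = 0.0263).

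Of 11 transcriptional CDKs and cyclins outside Mediator, CCNT2, a cyclin partner of the elongation kinase CDK9, rose 1.40-fold (log2 difference 0.48, SE 0.081, limma adjusted p = 0.0192). CDK7, the kinase of TFIIH, differed by 0.21 (adjusted p = 0.184) and CCNT1 by -0.18 (adjusted p = 0.228), and CCNT1 passed without negative control 3 at -0.23 (adjusted p = 0.0349). Of 22 pausing and elongation factors, ELL2, a super elongation complex subunit, rose 1.35-fold (adjusted p = 0.0284), with MLLT3 at 0.23 (adjusted p = 0.0981) and SUPT4H1 at -0.19 (adjusted p = 0.116). Without negative control 3, 3 of the 22 elongation factors passed, 2 higher and 1 lower, with MLLT3 among them at 0.17 (limma adjusted p = 0.0499). Negative control 3 was the lowest control in all 11 of the CDKs and cyclins and in 13 of the 22 elongation factors.

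Of 15 serum-response immediate early genes, a class through which MED23 and CDK8 have been studied, the stress-responsive factor ATF3 rose 1.46-fold (limma adjusted p = 0.0124), MYC 1.24-fold (adjusted p = 0.0146) and the RNA-destabilising protein gene ZFP36 1.23-fold (adjusted p = 0.0336), and the AP-1 subunit FOSL1 was 1.26-fold lower (adjusted p = 0.014). JUNB and DUSP1 each differed by 0.20 (adjusted p = 0.0701 and 0.113). Both passed without negative control 3, JUNB at 0.19 (limma adjusted p = 0.0432) and DUSP1 at 0.24 (adjusted p = 0.0317). The median change of the list was 0.02. Mean levels in it ranged from 4.83, below the median of all rows (4.995), to 10.1, so the median includes dim genes. Of 5 genes listed as acting on the kinase module, FBXW7, the ubiquitin ligase subunit known to target MED13 and MED13L for degradation, rose 1.23-fold (adjusted p = 0.0332). CDK2, a cell-cycle kinase, was 1.28-fold lower (adjusted p = 0.0197). The other 3 did not pass, among them SKP2 with a difference of 0.09 and PRMT5 with 0.07.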

How the data were processed

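The authors deposited log2 expression values that, per the submitters' processing notes, came from RMA and the Affymetrix Expression Console software (versions not named). RMA subtracts background, makes the arrays' probe distributions equal and summarises probes. The summarised row values were not fully equal in distribution. A second quantile normalisation moved the median change over all genes from -0.014 to 0.002 and the number of genes called from 950 to 1125. The log2 scale was read from the range of the values. No genome build is named in the labels. Of 70753 rows, 67528 held values and 23781 carried 1 symbol, updated through Entrez identifiers (21497 matched). The brightest row of each gene was kept, giving 22465 genes.

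Groups were compared with limma 3.58.1 in R 4.3.3 (lmFit, eBayes, two-sided, Benjamini-Hochberg over all genes, threshold 0.05). Changes are miR-130a minus negative control, SE is limma's moderated standard error, and fold is 2 to the power of the log2 difference. Paralog pairs were compared with exact permutation tests (scipy 1.17.1). The fit was tested on simulated data. Every Mediator gene is named. From the other lists the called genes and the 2 with the next smallest p are named. The promoters shown and the motifs were chosen after the values were seen. Members and lists were chosen with earlier results of these data known. The limma p-values set each difference against the spread between arrays within groups, pooled over both groups and moderated over all genes. The permutation p-values rest on relabelling the arrays. The alternatives tried were a replicate block (fixed, then random), dropping dim rows, other scalings, other row choices, array weights, other variance models, all rows, and leaving out each array.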

Additional observations from a re-analysis of the deposited data

How the results depend on the processing

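CDK19 passed under each of the 15 alternatives run, with differences of -0.83 to -0.72. MED13L passed under 7 of the 15 and kept its direction in all. It missed the threshold with the replicate block (adjusted p = 0.0545), median centring (0.114) and all rows tested (0.172). The number of Mediator genes called was 2 in the main comparison, 1 with the replicate block, median centring or all rows tested, 4 with the filter on dim rows, 5 with trend and robust options, 15 with array weights, and 1 to 6 with 1 array left out. Of the other 29 members, 4 (CDK8, MED15, MED21 and MED4) passed in an alternative other than array weights. Array weights, whose estimation stopped before convergence, gave negative control 1 a weight of 5.64 and negative control 3 a weight of 0.121, and moved the core median to -0.0526.

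The count over all genes was 950, against 520 with median centring, 1449 with trend and robust options, 7658 with array weights, and 237 to 2252 with 1 array left out. It was 818 with the replicate block. With all rows tested, 448 of 67528 rows were called, which is a count of rows and not of genes. In the 6 transcription lists 9 genes were called, against 2 with median centring, 0 with all rows tested, 15 with trend and robust options, 45 with array weights, and 0 to 18 with 1 array left out. Same-numbered arrays of both groups did not deviate together (r = -0.067, 0.058 and 0.089 over all genes), so the numbers were not taken as pairs. The median of the kinase module stayed between 0.12 and 0.19. Without scanner files, signal over background could not be judged.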
